A study of Mus musculus with 2 samples.

Results

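The T cell receptor alpha variable (Trav) segments are the germline exons that encode most of the antigen-binding part of the receptor alpha chain. They were taken as every gene whose symbol starts with Trav, which gave 128 of the 32285 genes counted, in 23 families by the number after Trav. Of these, 108 are annotated as genes and 20 as pseudogenes. The data are UMI counts (counts of distinct captured transcripts) from single cells sorted for TCRβ, taken from spleen pooled with lymph nodes of the neck and groin. The control was a Foxp3Cre WT mouse, and the test animal was a DKO-severe Foxp3-Cre Tet2/3fl/fl mouse, both 14 weeks old, with 1 mouse per genotype. Both, on the B6 background, carry a YFP and Cre knock-in expressed from Foxp3, the regulatory T cell (Treg) factor, so that in the DKO-severe mouse the floxed Tet2 and Tet3 genes, which encode enzymes that oxidise methylated DNA, are deleted in cells that express or have expressed Foxp3. DKO-severe is the study's name for mice with strongly enlarged spleen and lymph nodes. The cells of both mice carried different hashtag antibodies and were captured together. The labels give 10000 loaded cells, the files hold 7189 WT and 7161 DKO-severe barcodes with 0 in common, and 6585 and 6377 cells were kept here.

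In a developing T cell, recombination joins 1 V segment to 1 J segment at each rearranged alpha locus, and the joined exon is spliced to the constant exon Trac. Both alpha alleles can rearrange, so a cell may carry transcripts of more than 1 segment, and the daughters of a dividing T cell keep the segment of their parent. Trav11 joined to Traj18 forms the invariant alpha chain of natural killer T (NKT) cells, which depend on the factor encoded by Zbtb16, and Trav1 is used by mucosal-associated invariant T (MAIT) cells.

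The mouse locus holds long duplicated stretches whose segments carry the letter d or n in their symbols, and many copies differ by only a few bases. The V exons printed here include those of Trav8d-1 and Trav9-2, each of which led more DKO-severe Cd4 Foxp3-negative cells than any segment outside this pair. Also printed are those of Trav7-4, Trav14n-3 and Trav6-5, the first 3 of the DKO-severe cells called the Dscam set further on. Beside them stand Trav8-1, the closest copy of Trav8d-1, and the NKT segment Trav11 and its copy Trav11d. They are from GRCm38 (GENCODE vM21), chromosome 14, plus strand, and were read from the genome, not from the cells. Capitals mark bases that the closest copy of the same family does not share.
Trav8d-1: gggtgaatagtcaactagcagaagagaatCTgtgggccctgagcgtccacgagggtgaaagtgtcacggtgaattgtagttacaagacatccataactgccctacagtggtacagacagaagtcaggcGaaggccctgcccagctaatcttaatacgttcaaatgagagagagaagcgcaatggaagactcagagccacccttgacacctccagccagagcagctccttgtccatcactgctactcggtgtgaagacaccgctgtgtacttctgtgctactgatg
Trav8-1: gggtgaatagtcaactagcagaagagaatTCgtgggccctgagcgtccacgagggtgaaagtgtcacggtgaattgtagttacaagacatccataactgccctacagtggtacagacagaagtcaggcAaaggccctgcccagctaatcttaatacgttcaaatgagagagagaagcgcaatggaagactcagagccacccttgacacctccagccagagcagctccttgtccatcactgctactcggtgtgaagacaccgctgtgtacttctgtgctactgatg
Trav9-2: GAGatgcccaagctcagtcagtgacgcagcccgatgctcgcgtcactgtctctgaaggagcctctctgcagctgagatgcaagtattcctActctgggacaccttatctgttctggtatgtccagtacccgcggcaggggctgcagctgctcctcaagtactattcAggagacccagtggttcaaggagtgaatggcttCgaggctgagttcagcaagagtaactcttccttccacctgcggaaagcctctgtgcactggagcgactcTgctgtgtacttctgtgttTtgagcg
Trav7-4: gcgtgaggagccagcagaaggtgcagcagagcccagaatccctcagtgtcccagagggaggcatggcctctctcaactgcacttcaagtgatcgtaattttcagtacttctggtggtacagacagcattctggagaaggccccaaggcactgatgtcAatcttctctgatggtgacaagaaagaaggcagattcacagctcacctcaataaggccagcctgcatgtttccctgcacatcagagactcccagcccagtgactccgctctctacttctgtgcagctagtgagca
Trav14n-3: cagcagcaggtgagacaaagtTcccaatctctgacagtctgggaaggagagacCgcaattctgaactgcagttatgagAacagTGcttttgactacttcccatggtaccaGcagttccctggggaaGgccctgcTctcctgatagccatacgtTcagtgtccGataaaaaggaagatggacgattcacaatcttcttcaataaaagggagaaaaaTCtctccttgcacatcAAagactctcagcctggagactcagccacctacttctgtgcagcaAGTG
Trav6-5: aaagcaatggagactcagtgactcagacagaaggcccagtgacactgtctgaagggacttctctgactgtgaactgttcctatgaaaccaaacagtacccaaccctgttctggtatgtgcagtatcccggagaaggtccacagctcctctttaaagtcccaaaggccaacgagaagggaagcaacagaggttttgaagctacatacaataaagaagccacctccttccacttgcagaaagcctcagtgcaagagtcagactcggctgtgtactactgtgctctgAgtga
Trav11: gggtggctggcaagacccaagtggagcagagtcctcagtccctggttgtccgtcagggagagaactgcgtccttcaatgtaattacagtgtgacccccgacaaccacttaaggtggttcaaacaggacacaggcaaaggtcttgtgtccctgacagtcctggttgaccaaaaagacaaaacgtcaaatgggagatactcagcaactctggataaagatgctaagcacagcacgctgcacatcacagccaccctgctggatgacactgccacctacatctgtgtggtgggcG
Trav11d: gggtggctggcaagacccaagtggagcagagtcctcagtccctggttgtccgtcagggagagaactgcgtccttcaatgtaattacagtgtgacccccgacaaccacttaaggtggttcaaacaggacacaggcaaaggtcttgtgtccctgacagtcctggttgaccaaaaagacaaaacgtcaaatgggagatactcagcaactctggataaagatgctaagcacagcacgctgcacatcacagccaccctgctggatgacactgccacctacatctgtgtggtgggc
The Trav8d-1 exon lies at chr14:52778711-52778995 and differs from Trav8-1, at chr14:53469948-53470232, at 3 bases. The Trav9-2 exon, at chr14:53591221-53591514, carries 8 bases that its closest copy Trav9d-2 lacks or has otherwise. Trav7-4 (chr14:53461447-53461738) differs from Trav7d-4 at 1 base, Trav6-5 (chr14:53491334-53491622) from Trav6n-5 at 1 base, and Trav14n-3 (chr14:53370296-53370575) from Trav14-2 at 18 bases. Trav11 (chr14:53519569-53519859) has 1 base beyond the Trav11d exon (chr14:52824623-52824912).

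Segments without a unique stretch of sequence had few or no UMIs, and whether this set their counts was not tested. The transcript read was 90 bases long and the counting discards a read that matches more than 1 gene. The share of 90-base windows of each gene's exons that occur only once in the locus, counting both strands, was therefore computed. The locus includes sequence between and within the genes, so a window that is not unique may recur outside the other Trav exons. For 46 segments this share was 0, and 41 of these had no UMI in either mouse, with 20 UMIs in all over the other 5. Of the 39 segments with at least 90% unique windows, 3 had no UMI. In total 83 segments had a UMI, 82 in the WT and 71 in the DKO-severe mouse, and 45 had none. The last stretch of the locus, 47 segments without d or n in their symbols, held 67.0% of the 2345 WT and 63.3% of the 1686 DKO-severe Trav UMIs, while 20 of 39 segments of the d stretch and 20 of 34 of the n stretch had no UMI. A segment without UMIs is therefore not shown to be unused. The 20 pseudogenes took 3.03% of the Trav UMIs.

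**Figure D1:**
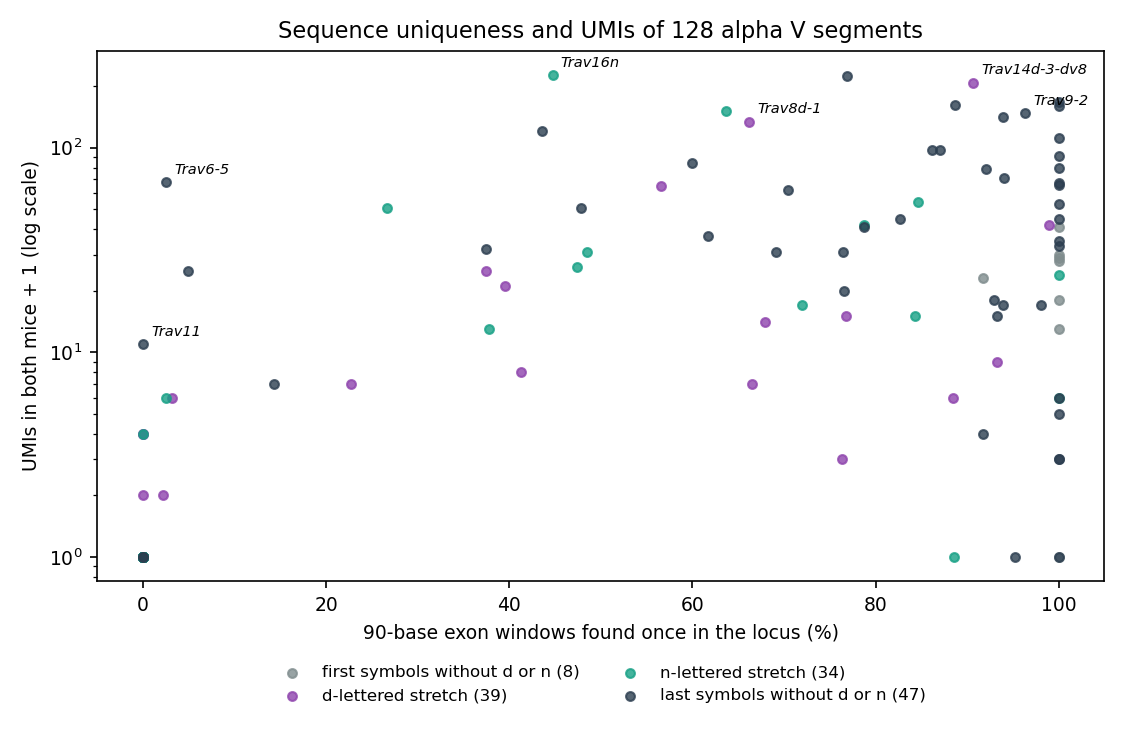
Each point is 1 of the 128 alpha V segments, with the share of its 90-base exon windows found only once in the locus (x axis, %) and its UMIs in both mice plus 1 (y axis, log scale). The 46 segments at 0% lie almost all on the bottom line, and Trav8d-1 and Trav9-2 stand at 133 and 146 UMIs.

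Cells were sorted into gates by their transcripts. The Cd4 gate took cells with Cd3, with Cd4 and without Cd8a or Cd8b1, and was split into Foxp3-negative and Foxp3-positive cells; the Cd8 gate was its mirror image; the Zbtb16 gate took Cd3-positive cells with at least 2 Zbtb16 UMIs. A Trav UMI was found in 24.9% of WT Cd4 Foxp3-negative cells (exact 95% binomial interval 22.8 to 27.0, 417 of 1675) and in 18.6% of DKO-severe ones (17.1 to 20.2, 449 of 2413). All intervals given here cover counting error only, since each genotype is 1 mouse and no test between genotypes was possible. In the Cd8 gate the shares were 23.1% (21.6 to 24.6, n = 3053) and 22.6% (20.6 to 24.6, n = 1736). Foxp3-positive cells gave 15.6% (10 of 64) and 19.0% (64 of 336), and the Zbtb16 gate 10.3% (8 of 78) and 17.1% (19 of 111). The DKO-severe cells held more UMIs, with a median of 7969 against 5258 in the Cd4 Foxp3-negative gate. With every cell thinned to 3800 UMIs, the shares were 19.7% and 10.0% in that gate and 15.8% and 11.5% in the Cd8 gate, so the DKO-severe mouse was lower in both. Thinning turned the direction in Foxp3-positive cells, to 12.7% (7 of 55, 5.27 to 24.5) in WT and 8.21% (27 of 329, 5.48 to 11.7) in DKO-severe, with intervals that overlap before and after. In the Zbtb16 gate the thinned shares were 6.76% and 9.91%. Cells that should lack the receptor gave the background: 1 of 218 DKO-severe B-lineage cells (0.459%, median 5136 UMIs) and 0 of 72 myeloid cells (a count of 0 here allows up to 4.17%) had a Trav UMI.

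**Figure D2:**
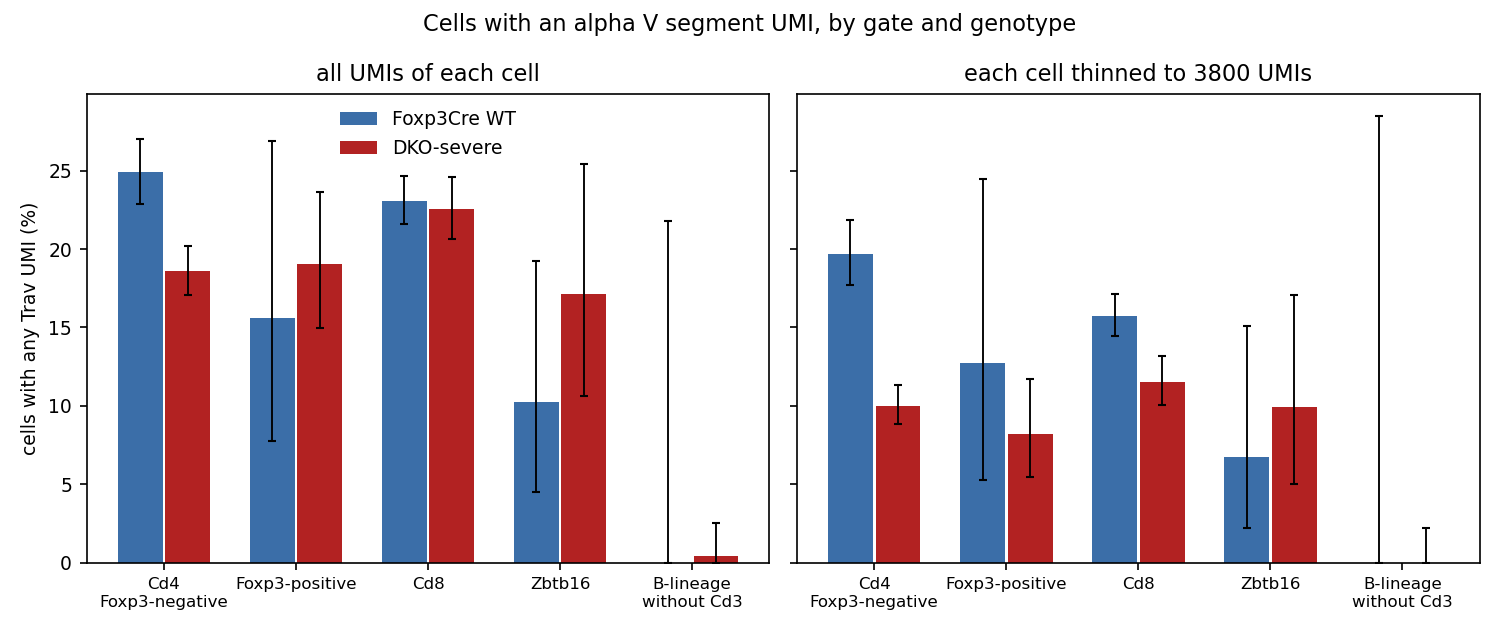
Bars give the share of cells with any Trav UMI (y axis, %) by gate and genotype, with exact 95% binomial intervals, for all UMIs (left) and for cells thinned to 3800 UMIs (right). After thinning, DKO-severe cells stand at 10.0% against 19.7% in the Cd4 Foxp3-negative gate, and B-lineage cells lie near 0.

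Where a cell had Trav UMIs, the segment with the most UMIs was called its leading segment, and cells with a tie were left out. The WT Cd4 Foxp3-negative gate had 383 such cells, spread over 68 segments with no dominant member. Trav14d-3-dv8 led 26 of them (6.79%, 4.48 to 9.79), Trav6-7-dv9 led 24 (6.27%) and Trav16n 15 (3.92%). Trav3-3 led 14 and Trav14-1 led 13.

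In the DKO-severe Cd4 Foxp3-negative gate a pair of segments stood far above the rest. Trav8d-1 led 75 of 410 cells (18.3%, 14.7 to 22.4), against 1 of 383 in WT (0.261%, 0.00661 to 1.45). Trav9-2 led 73 (17.8%, 14.2 to 21.9), against 6 in WT (1.57%, 0.577 to 3.38). For both segments the intervals of the genotypes lie apart, and no other segment rose by more than 2.34 percentage points, the value of Trav7-4 (16 cells against 6). Trav9n-4 was 1.92 and Trav12-2 1.55 points higher, with overlapping intervals. A leading segment with at least 2 UMIs was held by only 94 WT and 81 DKO-severe cells. Among these, Trav8d-1 led 11.1% and Trav9-2 8.64% in the DKO-severe mouse and neither led a WT cell. Most calls of the pair rest on 1 UMI. In this gate 93 DKO-severe cells held 102 Trav8d-1 UMIs and 86 held 93 Trav9-2 UMIs, at most 2 per cell.

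The closest copy of Trav8d-1 did not move with it. Over all cells Trav8d-1 had 15 UMIs in the WT and 118 in the DKO-severe mouse, while Trav8-1 had 23 and 13. With d and n copies joined into their plain segment, the WT share of the Trav8-1 group was 1.56%. Trav9-2 had 26 and 120 UMIs, and its near copy Trav9d-2, of which no window is unique, had 0.

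The largest falls of leading share in the same gate were those of Trav6-7-dv9, from 6.27% to 2.93% (3.34 points lower), and Trav16n, from 3.92% to 0.732% (3.18 points). Members of the Trav14 family followed. Trav14-2 went from 3.13% to 0.244%, Trav14-1 from 3.39% to 0.976% and Trav14-3 from 2.87% to 0.488%. Shares within a gate sum to the whole, so the falls and the gain of Trav8d-1 and Trav9-2 are not independent.

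By family, Trav9 led 24.1% (20.1 to 28.6) and Trav8 19.5% (15.8 to 23.7) of DKO-severe Cd4 Foxp3-negative cells. In WT they led 8.09% (5.57 to 11.3) and 2.61% (1.26 to 4.75). The families largely repeat the pair, since Trav9-2 led 73 of the 99 Trav9 cells and Trav8d-1 led 75 of the 80 Trav8 cells. Trav14, the leading WT family, went from 19.3% (15.5 to 23.6) to 10.5% (7.69 to 13.9). Among cells not led by the pair, it led 74 of 376 in WT and 43 of 262 in DKO-severe.

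The Cd8 gate showed no such pair. Trav16n led 8.17% (6.20 to 10.5) of 661 WT and 9.52% (6.76 to 12.9) of 378 DKO-severe cells, and Trav16 6.96% and 7.67%. The Trav16 family led 17.5% and 19.3%, against 9.14% in WT Cd4 Foxp3-negative cells. The next WT segments were Trav12-2 with 5.14%, Trav3-3 with 4.39% and Trav13-1 with 3.63%. The largest rise in the DKO-severe mouse was that of Trav6-7-dv9, 2.72 points from 3.63% (2.34 to 5.35) to 6.35% (4.11 to 9.30), followed by Trav21-dv12 with 1.78 points. The largest fall was that of Trav10, 1.66 points from 2.72% to 1.06%. The intervals of both genotypes overlap for each of these segments. Trav8d-1 had 4 UMIs in 4 of 3053 WT and 2 UMIs in 2 of 1736 DKO-severe Cd8 cells.

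**Figure D3:**
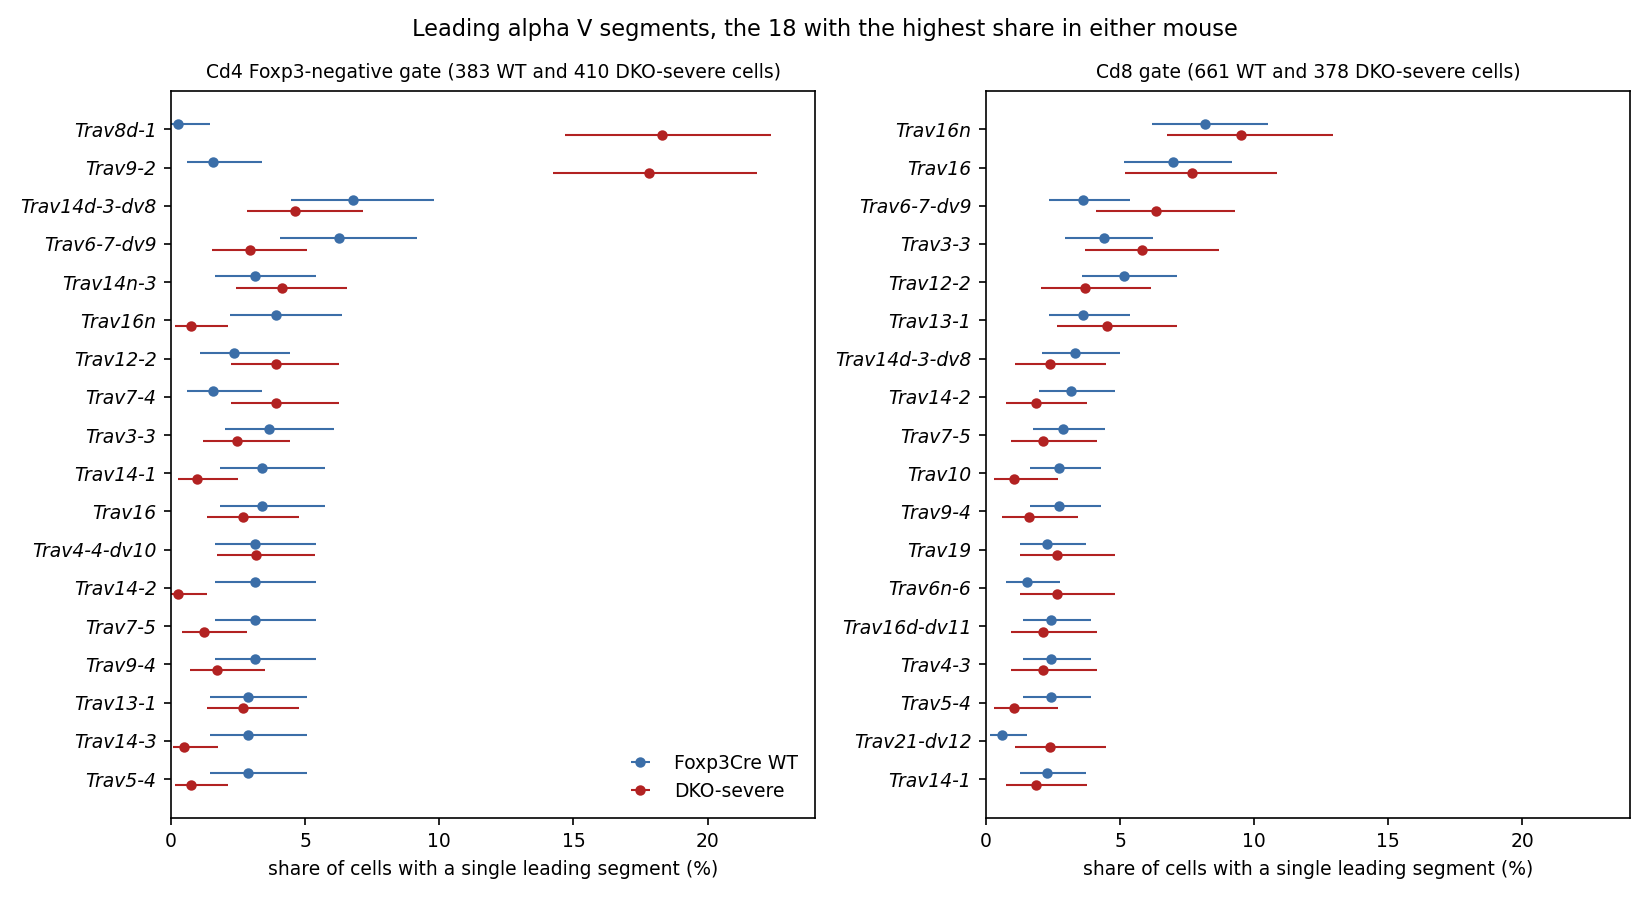
Points give the share of cells led by each segment (x axis, %) with exact 95% binomial intervals, for the 18 segments with the highest share in either mouse, in the Cd4 Foxp3-negative (left) and Cd8 (right) gates. Trav8d-1 and Trav9-2 reach 18.3% and 17.8% in DKO-severe Cd4 cells, and no Cd8 segment passes 9.52%.

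The effective number of segments, the number of equally used segments that would give the same chance of drawing a matching pair of cells, was 39.7 in WT and 12.8 in DKO-severe Cd4 Foxp3-negative cells. In the Cd8 gate it was 35.0 and 30.5. Joining d and n copies gave 22.8 and 11.4 in the Cd4 and 18.7 and 16 in the Cd8 gate. By families the Cd4 values were 10.5 and 7.65. Without the cells led by Trav8d-1 or Trav9-2, the Cd4 values were 38.6 in WT and 30.5 in DKO-severe. With those cells kept and at least 2 UMIs required for the leading segment, the DKO-severe Cd4 value was 21.7, from 81 cells.

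Foxp3-positive cells were few in WT, where 10 cells had a leading segment, so no WT share is compared. In the DKO-severe mouse 58 cells had a leading segment, and the pair that led the Foxp3-negative gate did not come first. Trav14n-3 led 9 (15.5%, 7.35 to 27.4), Trav7-4 led 8 (13.8%, 6.15 to 25.4) and Trav14d-3-dv8, Trav6-5 and Trav9-1 led 5 each (8.62%). Trav8d-1 and Trav9-2 led 1 cell each. Trav14d-3-dv8, Trav14n-3 and Trav7-4 were also among the next after that pair in the DKO-severe Foxp3-negative gate, at 4.63%, 4.15% and 3.90%. The effective number was 15.0, or 8.94 with copies joined.

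The Zbtb16 gate had 8 WT and 19 DKO-severe cells with a leading segment. Trav11 led 1 and 2 of them, and Trav1 led 2 WT cells and no DKO-severe cell. Over all cells Trav11 had a UMI in 3 WT and 7 DKO-severe cells, 1 and 2 of which were also past the Zbtb16 limit, and 2 of the 7 held a Traj18 UMI. Trav11 has no unique 90-base window and Trav11d had no UMI, so the share of NKT cells cannot be read from these segments at this read length.

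A subset of DKO-severe T cells expresses Cntn5, a neural cell adhesion gene, and another Dscam, Penk and Hapln1, which encode an adhesion molecule, an opioid precursor and a matrix link protein. The 861 DKO-severe cells with at least 3 Cntn5 UMIs are called the Cntn5 set, and the 1133 with at least 3 UMIs of the other 3 genes together the Dscam set; 142 cells are in both. In WT 20 and 49 cells passed the same limits. Of the Cntn5 set 76.3% lay in the Cd4 Foxp3-negative gate, and of the Dscam set 51.7%, with a further 226 cells in the Foxp3-positive gate.

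The Cntn5 set was led by the same pair of segments. Of its 164 cells with a leading segment, Trav8d-1 led 62 (37.8%, 30.4 to 45.7) and Trav9-2 led 59 (36.0%, 28.6 to 43.8), together 73.8%. Trav14n-3 was next with 7 cells (4.27%). The effective number was 3.66. Among DKO-severe Cd4 Foxp3-negative cells, 70.7% (59.0 to 80.62) of those led by Trav8d-1 and 68.5% (56.6 to 78.9) of those led by Trav9-2 were in the Cntn5 set, against 11.8% (8.18 to 16.4) of the 262 cells led by another segment. Il21, a cytokine gene of follicular helper T cells named here after its values were seen, had a UMI in 70.7%, 69.9% and 16.4% of these cells. The 3 groups had median UMI counts of 9152, 9640 and 8432. The pair was not limited to the Cntn5 set: outside both sets Trav9-2 led 20 and Trav8d-1 17 of 200 DKO-severe Cd4 cells (10.0% and 8.50%), and without the Cntn5 set the effective number of the Foxp3-negative gate was 27.7.

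The Dscam set was more mixed. Trav7-4 led 29 of 232 cells (12.5%, 8.53 to 17.5), Trav14n-3 led 26 (11.2%, 7.45 to 16) and Trav6-5 led 22 (9.48%, 6.04 to 14.0). Trav8d-1 led 17 (7.33%), but 5 of 199 (2.51%) once cells of both sets were left out. Trav14d-3-dv8 led 15 and Trav9-1 led 11. The effective number was 17.9. With at least 2 UMIs for the leading segment, 68 cells remained. Trav7-4 and Trav14n-3 led 22.1% and 23.5% of them, Trav6-5 led no cell, and the effective number was 8.16. Of the 42 DKO-severe cells led by Trav7-4, 69.0% (52.9 to 82.4) were in the Dscam set and 0 in the Cntn5 set. Of the 32 led by Trav6-5 these were 68.8% (50.0 to 83.9) and 0. Trav14n-3 was less confined, with 26 of its 51 cells in the Dscam set and 7 in the Cntn5 set. Of all 1079 DKO-severe cells with a leading segment, 232 were in the Dscam set and 164 in the Cntn5 set.

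**Figure D4:**
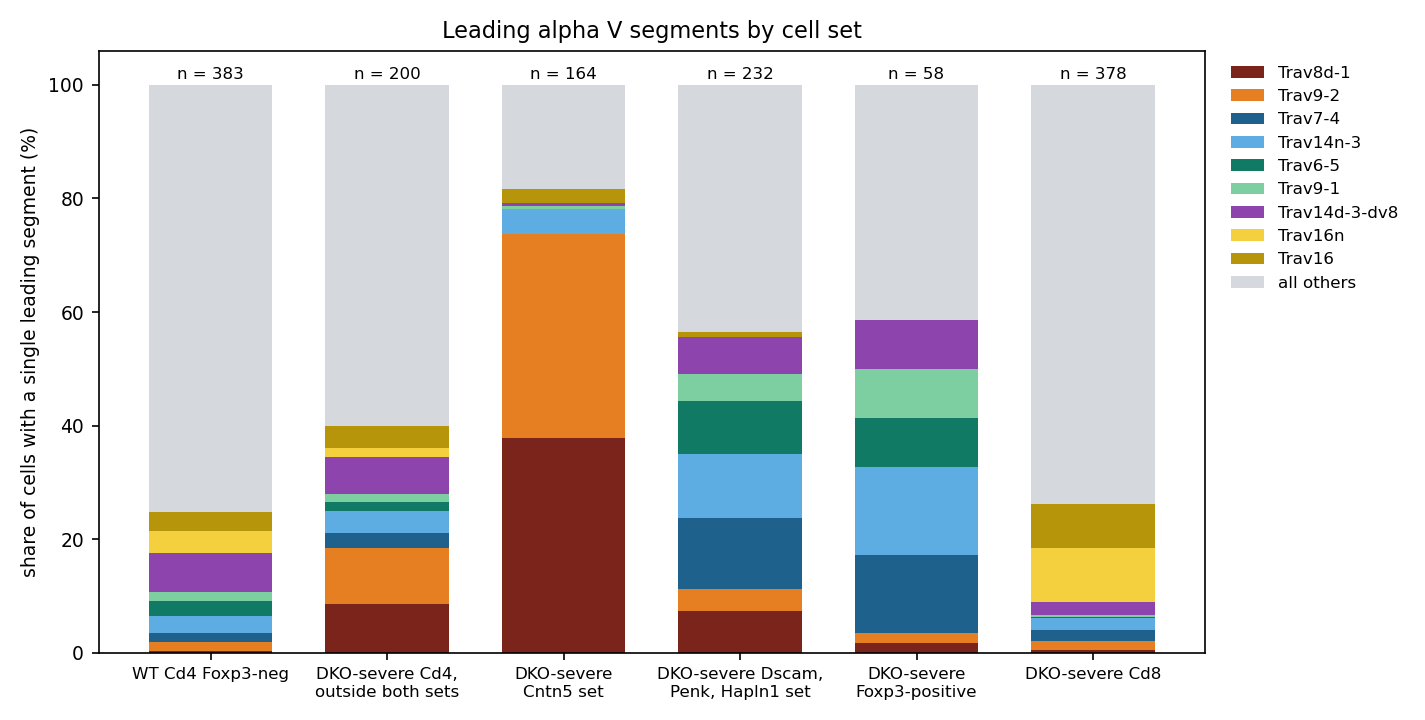
Stacked bars give the share of cells (y axis, %) led by 9 named segments and by all others in 6 cell sets, with the number of cells with a leading segment above each bar. Trav8d-1 and Trav9-2 together fill 73.8% of the Cntn5 set, and Trav7-4, Trav14n-3 and Trav6-5 are widest in the Dscam set and the Foxp3-positive cells.

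Some cells held UMIs of more than 1 Trav segment, 11.4% of WT and 11.1% of DKO-severe cells with any. In the DKO-severe mouse the most frequent combination was Trav8d-1 with Trav9-2. Within the Cntn5 set 14 of 79 cells with a Trav8d-1 UMI also had Trav9-2 (17.7%, 10.0 to 27.9), against 59 of 782 without Trav8d-1 (7.54%). Over all DKO-severe cells 16 held both, and 14 of these were ties and so left out of the leading counts. No WT cell held both, among 14 with Trav8d-1. The next combinations were Trav8d-2 with Trav14n-3 in 6 cells and Trav16d-dv11 with Trav16n, which are near copies, in 5. Doublets of cells and a cell with both alleles rearranged cannot be told apart in these counts.

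The beta chain pairs with the alpha chain, and its V segment (Trbv) was called the same way. Both were called in 339 WT and 375 DKO-severe cells. The most frequent WT pair, Trav16 with Trbv12-2, was in 7 cells (2.06%), and the next 3, Trav14d-3-dv8 with Trbv20, Trav16n with Trbv15 and Trav6-7-dv9 with Trbv3, in 4 each. In the DKO-severe mouse Trav9-2 with Trbv13-2 was in 22 cells (5.87%, 3.71 to 8.75), Trav8d-1 with Trbv13-2 in 21 and Trav8d-1 with Trbv12-2 in 18. Trav7-4 and Trav9-2 were each with Trbv12-2 in 12 cells. These beta segments were frequent in the whole DKO-severe mouse. Trbv12-2 was in 635 and Trbv13-2 in 495 of 6377 cells, against 216 and 182 of 6585 in WT. The effective number of Trbv segments was 13.9 in WT and 5.44 in DKO-severe Cd4 Foxp3-negative cells. It was 7.09 in DKO-severe Cd4 cells outside both sets. Whether the pairs exceed this beta background was not tested. Trbv12-2 and Trbv13-2 were themselves both detected in 61 of the 861 cells of the Cntn5 set, where 177 and 205 cells held each. This was also the most frequent beta combination in WT, in 18 of 6585 cells. In the Cd8 gate it was in 11 WT and 4 DKO-severe cells.

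Of the segments named for the Dscam set, Trav6-5, Trav9-1 and Trav7-4 were most often with Trbv12-2, also a partner of Trav8d-1 and Trav9-2, while Trav7-4 was also with Trbv13-3 and Trav14n-3 with Trbv26. Shares are set against the DKO-severe cells of all gates that were led by another alpha segment and had a called beta segment. Trav6-5 was with Trbv12-2 in 11 of 13 cells (84.6%, 54.6 to 98.1), against 87 of 362 others (19.7 to 28.8%), and in 5 of the 6 of these 13 that lay in the Cd4 gate. No DKO-severe cell had more than 1 Trav6-5 UMI, and 2.46% of the windows of Trav6-5 were unique. Trav9-1 was with Trbv12-2 in 6 of 7 cells, against 25.0%. The starts of Trav9-1 and Trav6-5 lie 3070 bases apart, and 4 DKO-severe cells had UMIs of both. Trav7-4 was with Trbv12-2 in 12 of 24 cells and with Trbv13-3 in 8 (33.3%, 15.6 to 55.3), and Trbv13-3 was in 2.28% (0.989 to 4.44) of the others. Among Cd4 cells alone Trbv13-3 was in 4 of 15 led by Trav7-4 and 1 of 180 others. Trav14n-3 was with Trbv26 in 5 of 13 cells (38.5%, 13.9 to 68.4), against 3.04% (1.53 to 5.37), and among Cd4 cells in 4 of 10 against 5 of 185. Of the cells with a called beta segment, 37 of 44 led by Trav8d-1 and 36 of 39 led by Trav9-2 lay in the Cd4 gate.

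**Figure D5:**
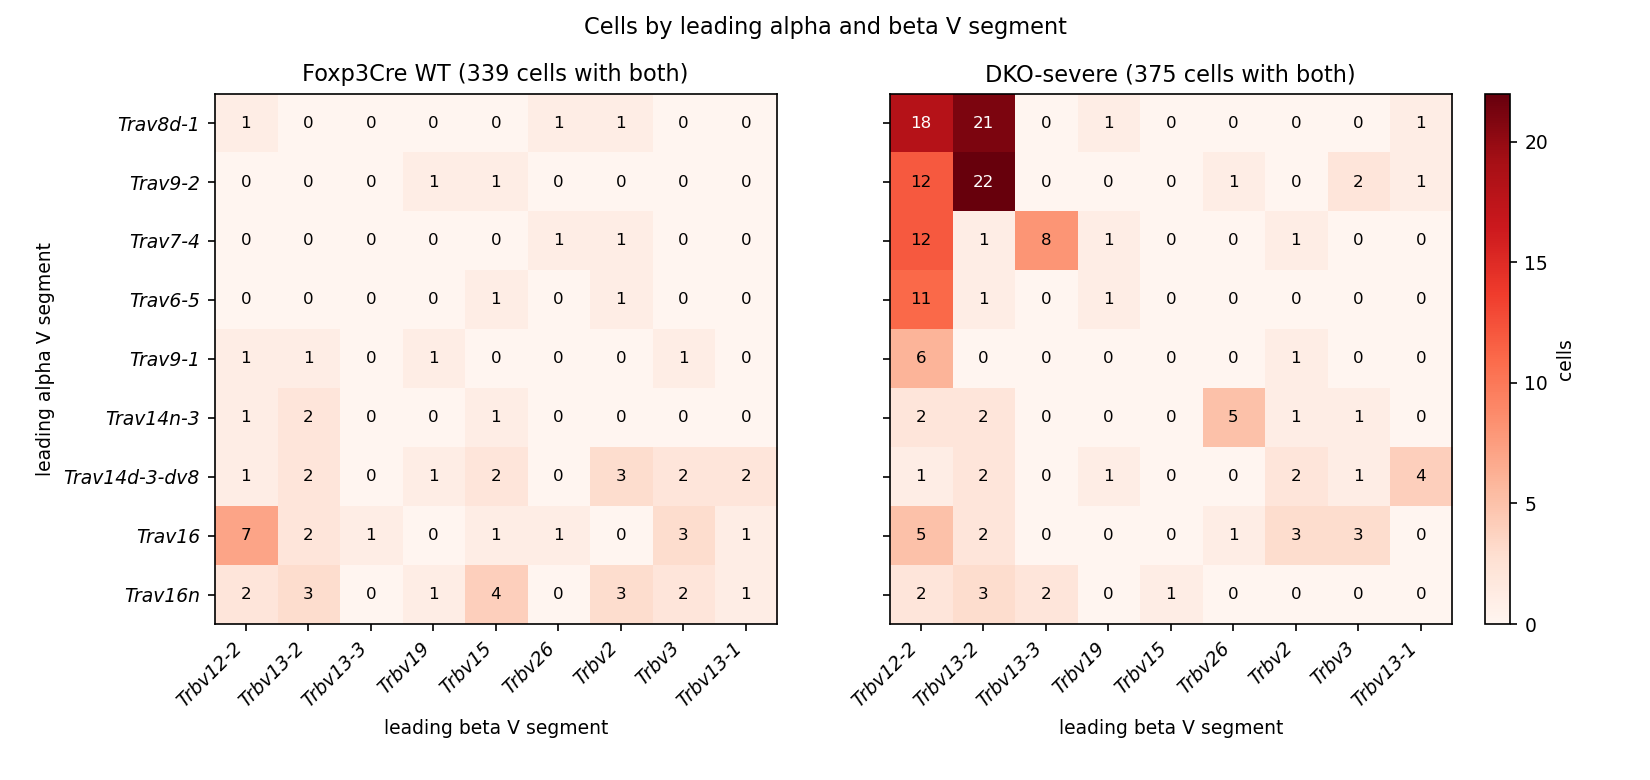
Numbers and shading give the cells with each leading alpha (rows) and beta (columns) V segment in the WT (left, 339 cells) and DKO-severe (right, 375 cells) mouse; rows and columns were chosen after the values were seen. DKO-severe cells gather in Trav8d-1 and Trav9-2 with Trbv12-2 and Trbv13-2, with 12 to 22 cells a pair. Trbv12-2 and Trbv13-2 were found in 635 and 495 of all 6377 DKO-severe cells.

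The summed level of all Trav segments was lower in the DKO-severe mouse in the Cd4 and Cd8 gates. In Cd4 Foxp3-negative cells it was 62.3 CPM (UMIs scaled to a common total per gate) in WT and 27.4 in DKO-severe, a log2 ratio of -1.19 (-1.35 to -1.02), and in the Cd8 gate 50.2 and 34.3 (-0.55, -0.70 to -0.40). Foxp3-positive cells had 37.0 and 19.7 CPM (-0.91, -1.67 to -0.08, from 17 and 96 UMIs). In the Zbtb16 gate it was higher in DKO-severe, with 14.5 and 18.1 CPM, but the interval spans 0 (0.32, -0.83 to 1.60, from 9 and 25 UMIs). Trac, the constant exon of the same transcript, had log2 ratios of 0.25 and -0.31, and Trbc2 0.17 and -0.39, so the constant exon did not fall with the V segments in Cd4 cells. Of the other receptor genes in Cd4 Foxp3-negative cells, Dntt, which adds bases at the V-J joint, had -3.0 (47 and 14 UMIs). The delta constant gene Trdc had -3.74 (73 and 13 UMIs). The gamma constant genes went the other way. Tcrg-C1 had 1.40 (13 and 82 UMIs), Tcrg-C2 2.24 (7 and 79) and Tcrg-C4 1.71 (9 and 70). Cd3d, Cd3e and Cd3g had 0.44, 0.56 and 0.57, while Trbc1 had -0.34 and Cd247 -0.63.

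Among genes with at least 30 UMIs in the Cd4 Foxp3-negative gate, 24.1% of all genes lay past 2-fold, 18.2% higher and 5.90% lower in DKO-severe, and 14 Trav segments passed that limit. Trav8d-1, with 4 and 102 UMIs (0.409 and 4.38 CPM), had a log2 ratio of 3.42 (2.02 to 5.32). Trav9-2, with 7 and 93 UMIs, had 2.48 (1.38 to 3.83). These were the 2 of the 14 that were higher past 2-fold, while 8 were lower, among them Trav16n, with 26 and 5 UMIs, at -3.63 (-5.37 to -2.23). In the Cd8 gate 8.50% of all genes lay past 2-fold and 3.51% were lower, and of 17 Trav segments 5 were lower and 0 higher. Adding a pseudocount of 5 CPM to both genotypes, which is above the level of each of these segments in both mice, left 0 segments higher and 0 lower past 2-fold in either gate, with Trav8d-1 at 0.79, Trav9-2 at 0.65 and Trav16n at -0.55 in the Cd4 gate. The median log2 ratio was 0.14 over all genes and -1.23 over the 14 segments in the Cd4 gate, and -0.02 and -0.52 over the 17 in the Cd8 gate; these counts describe segments that passed a limit on UMIs and are no support for a direction.

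Transcripts of other cells moved with the genotype. The 4 granulocyte markers summed to 76.2 CPM in WT and 2464 in DKO-severe Cd4 Foxp3-negative cells and to 68.5 and 1294 in the Cd8 gate, the 4 myeloid markers to 54.8 and 415 in the Cd4 gate, and the 5 B-lineage markers to 352 and 45.5. All markers of these 3 lists had UMIs in the Cd4 gate of both mice, and their part in the lower Trav level was not tested. In the Zbtb16 gate the 4 gamma-delta T cell markers summed to 109 CPM in WT and 126 in DKO-severe. The Cd4 Foxp3-negative gate had 9.61 and 7.59. Myeloid markers summed to 969 and 1024 CPM in the Zbtb16 gate. The part of such cells in the Trav shares of that gate was not tested.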

How the data were processed

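Per the file headers, the deposited matrices hold UMI counts per gene and barcode from Cell Ranger 7.1.0, 1 matrix per hashtag (Chromium 3' v3.1, mm10); the annotation release is not given in the sources used here. Cells with at least 500 genes and at most 10% mitochondrial counts were kept and the highest 6% of Scrublet scores per matrix removed (Scanpy 1.11.5), since its automatic limit marked 0 cells. Total counts were 45294779 in WT and 69692053 in DKO-severe. Intervals are exact 95% Clopper-Pearson intervals, and for ratios exact intervals conditional on the summed count (SciPy 1.17.1); a count under 3 was set to 3 in ratios. The effective number is N(N-1) over the sum of n(n-1). Thinning drew 3800 UMIs per cell without replacement, with gates from full counts, and left out shallower cells. The effective number and the ratio intervals were tested on simulated data.

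The members, gates and lists were chosen with earlier results of these data known. Named segments are the 5 that led most cells (at least 3) in each gate and set, the 5 largest rises and falls in the Cd4 Foxp3-negative and Cd8 gates, Trav1, Trav11, Trav11d, and the 5 most frequent pairs per genotype; Trav8-1, Trav9d-2, Trav8d-2, Trav16d-dv11, Il21 and pairs outside that count were named after their values were seen. V exons are from GRCm38 with GENCODE vM21. The 2 libraries (mRNA and hashtag) come from the same cells.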

Additional observations from a re-analysis of the deposited data

Results flagged for a closer look

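These 4 segments were picked because their shares moved in opposite directions in the 2 gates by at least 1 percentage point. The opposition is thus the rule of choice, and the difference was not tested. The leading share of Trav6-7-dv9 in DKO-severe minus WT was -3.34 points in the Cd4 Foxp3-negative and 2.72 in the Cd8 gate. Trav16n had -3.18 and 1.35, Trav3-3 -1.22 and 1.43, and Trav12-2 1.55 and -1.44. In the Cd4 Foxp3-negative gate the intervals of the genotypes lay apart for Trav16n only. They overlapped for Trav6-7-dv9, for Trav12-2 and for Trav3-3 (14 of 383 WT and 10 of 410 DKO-severe cells).

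The alpha J segments (Traj), which the comparisons did not use, had UMIs above the level of B-lineage cells (1.38% in DKO-severe, 3 of 218). In Cd4 Foxp3-negative cells 25.9% of WT and 38.6% of DKO-severe cells had a Traj UMI, and in the Cd8 gate 23.8% and 27.8%. With every cell thinned to 3800 UMIs, an alternative chosen after the data were seen, the shares were 18.4% (16.5 to 20.5) and 21.5% (19.9 to 23.3) in the Cd4 gate, with overlapping intervals, and 14.5% (13.2 to 15.8) and 12.3% (10.7 to 14.0) in the Cd8 gate, where the direction turned. The summed Traj level was 57.4 and 62.5 CPM in the Cd4 and 43.9 and 38.6 CPM in the Cd8 gate.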

How the results depend on the processing

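Over 20 alternatives, 406 values of 79 results were recomputed: 333 stayed within the interval of the reported value (counts and effective numbers within 1.5 times) and 73 moved; 0 log2 ratios changed sign; the cause was not tested. Requiring 2 or more UMIs of the leading segment moved most (29 of 51). It left 94 WT and 81 DKO-severe Cd4 Foxp3-negative cells, 172 WT Cd8 cells, 68 Dscam set cells and 20 Cntn5 set cells. It gave, in Cd4 Foxp3-negative cells, Trav8d-1 11.1% in DKO-severe and 0 in WT, Trav9-2 8.64% and 0, the Trav8 family 12.3%, the Trav9 family 13.6% and 5.32%, and an effective number of 21.7 in DKO-severe; in WT Cd8 cells an effective number of 22.0; in the Dscam set 8.16, with Trav14n-3 at 23.5%, Trav7-4 at 22.1% and Trav6-5 at 0; and in the Cntn5 set Trav8d-1 at 30%. Thinning gave detection shares of 19.7% (WT) and 10.0% (DKO-severe) in the Cd4 Foxp3-negative and 15.8% and 11.5% in the Cd8 gate, and Trav8d-1 14.2%. Joining d and n copies gave effective numbers of 22.8 (WT Cd4), 18.7 and 16 (Cd8, WT and DKO-severe) and 8.94 (DKO-severe Foxp3-positive), and 1.56% for Trav8d-1 in WT. Alternatives added after the data were seen gave effective numbers of 30.5 without cells led by Trav8d-1 or Trav9-2, and 27.7 without the Cntn5 set, in DKO-severe Cd4 Foxp3-negative cells, and 20.1 in the Cntn5 set without the pair. Of segments past the fold limit, a pseudocount of 5 CPM left 0 higher and 0 lower in Cd4, and 0 lower in Cd8 cells. A limit of 10 UMIs gave 25 lower in the Cd4 and 14 lower and 1 higher in the Cd8 gate. A 4-fold limit left 3 lower in the Cd4 and 0 lower in the Cd8 gate. The share of all genes past these limits was not computed, so these counts have no background and are no support for a direction. With 1 mouse per genotype, spread between mice is unknown. No paired analysis was possible because each genotype is 1 mouse.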

Other observations

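Further combinations in the DKO-severe mouse were picked after their values were seen and rest on few cells. Each is set against the DKO-severe cells of all gates that were led by another alpha V segment. All 4 cells led by Trav8n-2 with a called beta segment had Trbv2, against 6.74% (25 of 371), and 1 of the 4 lay in the Cd4 gate. All 5 cells led by Trav6-3 had Trbv13-2, against 21.9% (81 of 370), and 4 of these lay in the Cd4 gate. Of 20 cells led by Trav14n-3 with a called J segment, 12 of them Cd4, 9 had Traj12, against 71 of 296, and 4 had Traj25, against 3 of 296. Of 26 such cells led by Trav8d-1, 11 had Traj12 (42.3%, 23.4 to 63.1), against 23.8% (19.0 to 29.1), so the intervals overlap. Of 45 led by Trav9-2, 12 had Traj12 (26.7%, 14.6 to 41.9), against 25.1%. Among Cd4 cells alone Traj12 was in 10 of 21 led by Trav8d-1, against 40 of 133 others. For Trav9-2 it was in 10 of 35, against 40 of 119 (33.6%), so the direction turned. Traj12 was the most frequent leading J segment in the Cd4 Foxp3-negative and Cd8 gates of both mice.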
